A study of Mus musculus with 4 samples.

Results

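S9.6 CUT&Tag intervals called in P19 cells given the first Ube2t hairpin were set against those called in P19 cells given a control hairpin. Each library had its own deposited peak list. Summits that share an interval were reduced to the interval with its best summit by p, and an interval was shared when it overlapped an interval of the other list by at least 1 bp. This gave 1519 intervals in the shUbe2t #1 list and 1263 in the shCtrl list, 2782 of the 4938 intervals in the 4 lists of the series. They fell into 831 intervals called with shUbe2t #1 only, 585 called with shCtrl only, and 688 shUbe2t #1 intervals that overlapped 678 shCtrl intervals. Joined, both lists covered 2092 separate regions, and 676 of these held intervals of both.

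P19 is an established mouse embryonal carcinoma line, grown here in medium with serum. The shCtrl cells received a control adenovirus and carry a wild-type genotype label. The shUbe2t #1 cells received an adenovirus with a hairpin against Ube2t, so both groups share the viral delivery, and a hairpin acts on the transcript and leaves the gene in place. A second hairpin (shUbe2t #2, S9.6) and a library of shCtrl cells made without primary antibody complete the series, which asks what UBE2T does in the removal of R-loops. The deposited peak names of that last library begin with IgG, so it is not settled here whether a non-specific antibody was added, and "no antibody" is the label's term. Its intervals are used here to mark sites that did not need S9.6, and the second hairpin as a list that took no part in forming the classes. The labels name 1 library per condition and no separate cultures, so there is no replicate check, every difference below is a difference between these libraries, and no p-value is given. Bounds in parentheses after shares are exact (Clopper-Pearson) 95% binomial intervals, which cover counting error only.

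R-loops form when nascent RNA pairs with its DNA template and leaves the other DNA strand unpaired. They are common where transcription starts at CpG-rich promoters and where it ends, and those that persist can stall replication forks and break DNA. S9.6 is an antibody that binds RNA:DNA hybrids, and in CUT&Tag it brings a transposase that tags the DNA around it. UBE2T is the E2 enzyme with which the Fanconi anaemia core complex ubiquitinates FANCD2 and FANCI, a pathway that repairs interstrand crosslinks and also limits R-loops at stalled forks. The lists hold no library treated to remove hybrids, so an S9.6 interval is a called site and was not shown to be an R-loop.

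The promoters at which summits lay are shown first, since most intervals called with the first hairpin only were at gene starts. For each class, 2 of the genes with the highest fold, or the highest hairpin-to-control ratio for shared intervals, are printed. Each window runs from 250 bases before to 50 bases after an annotated start, 300 bases in all, 5′ to 3′ on the strand of the gene, from RefSeq for GRCm38.p6 (the same build as mm10). Capitals mark runs of 4 or more G or C and the CCAAT box (or its complement ATTGG). Zfp983, a zinc finger gene (chr17:21650361-21650660 (plus strand)), and Hspbp1, the gene of an HSP70 co-chaperone (chr7:4684932-4685231 (minus strand)), had summits at bases 193 and 156 of the window in shUbe2t #1 and no interval in shCtrl.
Zfp983: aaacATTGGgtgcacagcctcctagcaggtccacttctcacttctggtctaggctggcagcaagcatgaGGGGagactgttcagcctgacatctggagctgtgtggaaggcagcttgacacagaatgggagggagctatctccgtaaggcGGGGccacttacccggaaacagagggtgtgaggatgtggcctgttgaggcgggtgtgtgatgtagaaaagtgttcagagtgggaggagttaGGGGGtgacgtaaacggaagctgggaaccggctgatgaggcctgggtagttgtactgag
Hspbp1: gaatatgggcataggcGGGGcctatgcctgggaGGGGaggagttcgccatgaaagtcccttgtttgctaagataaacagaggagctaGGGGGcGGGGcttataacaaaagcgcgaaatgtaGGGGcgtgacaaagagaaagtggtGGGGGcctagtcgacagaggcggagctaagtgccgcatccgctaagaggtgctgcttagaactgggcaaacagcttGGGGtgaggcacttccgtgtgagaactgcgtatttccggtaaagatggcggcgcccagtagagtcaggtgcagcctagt
Nr6a1, the gene of germ cell nuclear factor (chr2:38926412-38926711 (minus strand)), and Wasf1, an actin regulator gene (chr10:40883284-40883583 (plus strand)), had summits at bases 290 and 245 in shCtrl and no interval in shUbe2t #1.
Nr6a1: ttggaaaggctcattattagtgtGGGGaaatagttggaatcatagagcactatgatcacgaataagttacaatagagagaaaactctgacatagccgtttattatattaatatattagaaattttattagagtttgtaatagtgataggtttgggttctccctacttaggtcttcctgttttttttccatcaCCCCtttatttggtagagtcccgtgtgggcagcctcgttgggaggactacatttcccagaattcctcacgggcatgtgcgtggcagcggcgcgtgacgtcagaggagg
Wasf1: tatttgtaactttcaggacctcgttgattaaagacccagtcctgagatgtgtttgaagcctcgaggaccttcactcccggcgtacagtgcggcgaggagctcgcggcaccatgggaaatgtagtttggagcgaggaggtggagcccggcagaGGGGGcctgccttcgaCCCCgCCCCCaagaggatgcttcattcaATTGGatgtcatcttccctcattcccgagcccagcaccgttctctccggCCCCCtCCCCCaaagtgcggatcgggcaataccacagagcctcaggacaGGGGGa
Gatad2a, the gene of a NuRD chromatin remodelling subunit (chr8:69996335-69996634 (minus strand)), and Casc1 (chr6:145210921-145211220 (minus strand)) were called in both, with the shUbe2t #1 summits at bases 196 and 111.
Gatad2a: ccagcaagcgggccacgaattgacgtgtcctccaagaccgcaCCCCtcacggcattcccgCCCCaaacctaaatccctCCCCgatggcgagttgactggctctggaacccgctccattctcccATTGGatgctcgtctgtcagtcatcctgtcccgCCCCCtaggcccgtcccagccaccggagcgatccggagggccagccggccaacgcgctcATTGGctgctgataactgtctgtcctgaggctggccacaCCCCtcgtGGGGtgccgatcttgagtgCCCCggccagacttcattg
Casc1: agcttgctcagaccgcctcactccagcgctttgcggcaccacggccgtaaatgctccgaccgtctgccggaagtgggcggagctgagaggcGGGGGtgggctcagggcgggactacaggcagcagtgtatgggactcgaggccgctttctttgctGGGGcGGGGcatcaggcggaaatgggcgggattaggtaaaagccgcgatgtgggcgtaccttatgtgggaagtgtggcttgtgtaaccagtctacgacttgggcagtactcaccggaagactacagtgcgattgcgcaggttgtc
The windows differ in composition. GC content was 56.0% at Zfp983, 56.0% at Hspbp1, 42.3% at Nr6a1, 59.0% at Wasf1, 64.0% at Gatad2a and 61.3% at Casc1. Runs of 4 or more G or C numbered 3, 7, 2, 6, 7 and 3 in the same order.

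Over all windows that held a summit, the 3 classes had similar composition and were richer in GC and CpG than promoters at large. Median GC content was 65.0% in 302 windows of shUbe2t #1-only summits, 64.0% in 111 windows of shCtrl-only summits and 65.7% in 86 windows of shared summits, against 52.7% in all 32851 windows of the table and 56.3% in 21263 windows of protein-coding genes. The median window held 24 CpG dinucleotides with shUbe2t #1 only, 22 with shCtrl only and 24 when shared, against 13 over protein-coding genes. Letters were searched on both strands. GGGCGG, the core of the GC box that SP1-family factors bind, was in 81.1% (76.2 to 85.4) of shUbe2t #1-only windows, 82.9% (74.6 to 89.4) of shCtrl-only windows and 86.0% (76.9 to 92.6) of shared windows, against 46.2% over protein-coding genes and 35.7% over all windows. CCAAT, the box bound by NF-Y, was in 56.3% (50.5 to 62.0), 60.4% (50.6 to 69.5) and 61.6% (50.5 to 71.9), against 38.2% over protein-coding genes. TATAAA was in 3.31% (1.60 to 6.01), 3.60% (0.990 to 8.97) and 2.33% (0.283 to 8.15), against 12.6% over protein-coding genes. GGGG, which GGGGG runs also match, was in 98.0% of shUbe2t #1-only windows, 99.1% of shCtrl-only windows and 100% of shared windows. Over protein-coding genes it was in 88.2%. CACGTG, the E-box of MYC-family and USF factors, was in 7.28% (4.62 to 10.8) of shUbe2t #1-only windows and 12.6% (7.07 to 20.3) of shCtrl-only windows, with 7.84% over protein-coding genes. For 3 longer motifs, CCGGAAGT of ETS factors, GCATGCGC of NRF1 and TGACGTCA of CREB, the shares were 6.29%, 5.30% and 3.31% with shUbe2t #1 only. They were 6.31%, 2.70% and 2.70% with shCtrl only and 6.98%, 5.81% and 1.16% when shared. Over protein-coding genes they were 5.15%, 3.52% and 2.23%. The counting bounds of the classes overlap for each of the 3, and each protein-coding share lies within them. A match describes letters and not occupancy.

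The shUbe2t #1 list was longer although its library was shallower. Depth was read from the lowest background that the deposited values imply, which was 1.21 in shUbe2t #1 and 1.31 in shCtrl, or 92.2% of the shCtrl depth, and the number of fragments per library is unknown. The second hairpin stood at 93.6% and the no-antibody library at 58.7%. The median summit held 16 fragments in both S9.6 lists and the weakest held 8. A Poisson count of 16 has a 95% interval of 9.1 to 26.0, so single sites were measured with low precision. Ube2t itself (chromosome 1, 134962565 to 134974180) held 0 intervals within 1000 bp in each of the 4 libraries. Peaks on genomic DNA do not measure its transcript, and the knockdown could not be checked.

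Intervals called with the first hairpin only made up 54.7% of its list (52.2 to 57.2), and intervals called with shCtrl only made up 46.3% of the shCtrl list (43.5 to 49.1). Each count is a list's length less its shared intervals, so the counts and the list lengths differ together by construction. At equal list length the counts were 624 with shUbe2t #1 only and 633 with shCtrl only. Why the lists differ in length was not tested. Of the 585 shCtrl-only intervals, 508 (86.8%, 83.8 to 89.5) would still pass the lowest −log10 p of the shUbe2t #1 list, 4.66, with pileup and background scaled to its depth. Of the shared shCtrl intervals, 653 of 678 (96.3%) would. The scaling takes each count as exact, for intervals that had already passed a cutoff. It therefore cannot say how many would be called again at that depth.

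No-antibody intervals coincided mainly with the shared class. They overlapped 56.5% of shared shUbe2t #1 intervals (389 of 688, 52.7 to 60.3), 5.64% of shCtrl-only intervals (33 of 585, 3.91 to 7.83) and 1.93% of shUbe2t #1-only intervals (16 of 831, 1.10 to 3.11). Shared intervals with a no-antibody overlap were also the strong ones, with a median pileup of 39 fragments and a median deposited fold over local background of 7.83. Shared intervals without that overlap had medians of 16 fragments and 4.91. Setting no-antibody overlaps aside left 815 shUbe2t #1-only, 552 shCtrl-only and 299 shared intervals, here called free intervals, and the results below are on these unless stated. Because the no-antibody library was shallower, absence from its list is a weaker statement than presence.

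Free intervals of a single list were near the detection limit in both libraries. Median pileup was 13 fragments in the shUbe2t #1-only class (quartiles 11 and 16, median fold 4.55) and 13 in the shCtrl-only class (quartiles 11 and 16, median fold 4.40). A Poisson count of 13 has a 95% interval of 6.9 to 22.2, which reaches below the weakest called summits. The plot of summit pileup shows the same. Stronger summits were found again more often. Of shUbe2t #1 intervals with a −log10 p under 6, 15.3% (32 of 209, 10.7 to 20.9) were also in the shCtrl list, and of those at 14 or more 71.4% (45 of 63, 58.7 to 82.1) were. In the other direction the shares were 19.6% (40 of 204, 14.4 to 25.7) and 81.2% (39 of 48, 67.4 to 91.1). Membership of the single-list classes therefore moved with strength in both directions, and its part in the class sizes was not tested.

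**Figure D1:**
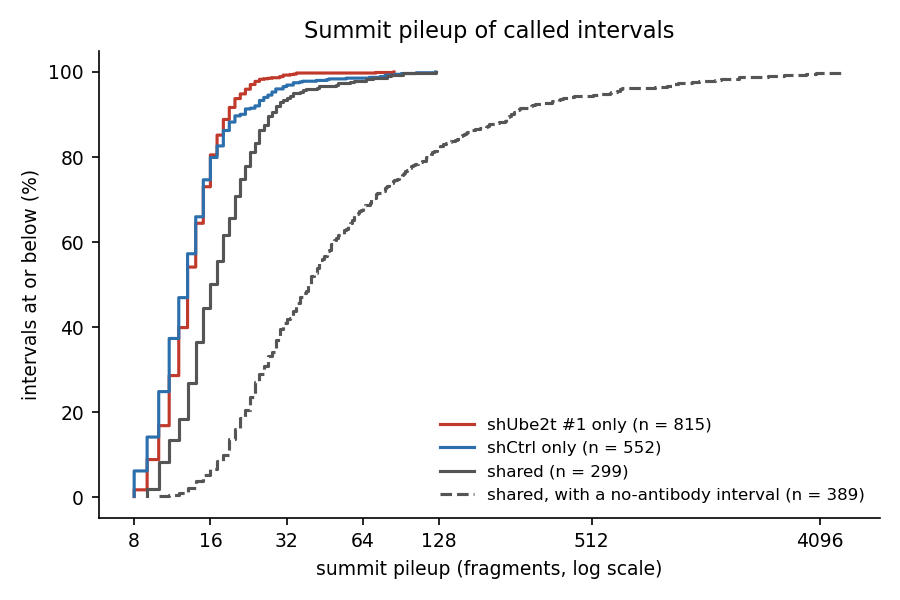
Cumulative share of intervals (y axis, %) against summit pileup in fragments (x axis, log scale), with 1 line per class. The shUbe2t #1-only and shCtrl-only lines both cross the middle at 13 fragments, the shared line at 16, and the dashed line of shared intervals with a no-antibody overlap at 39.

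**Figure D2:**
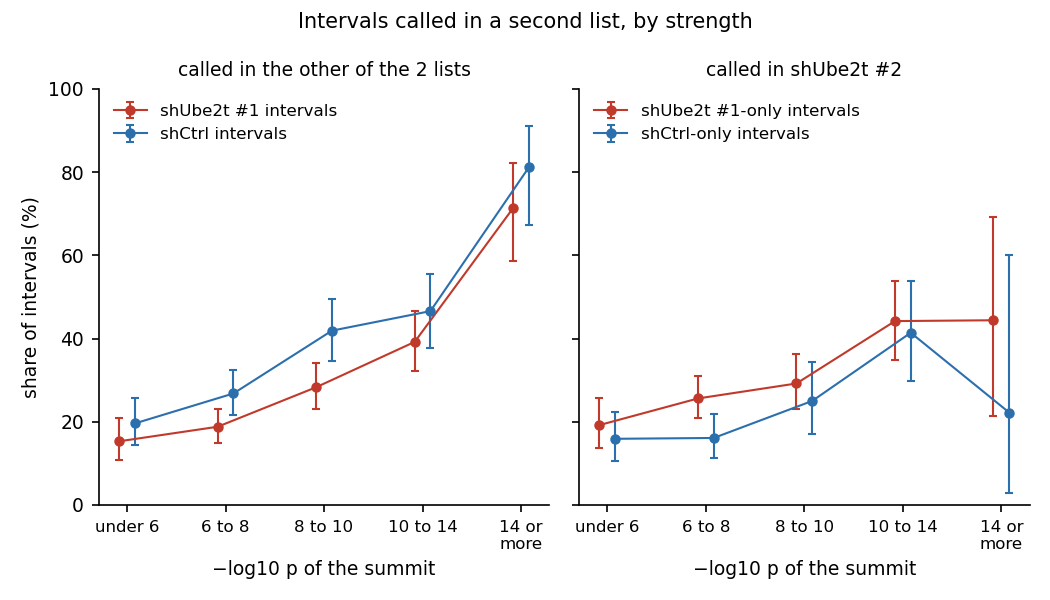
Share of intervals (y axis, %) that were also called in a second list, by −log10 p of the summit in the first list (x axis), for the other list of the pair on the left and the second hairpin on the right, with exact 95% binomial bars. The share called in the other list goes from 15.3% to 71.4% for shUbe2t #1 and from 19.6% to 81.2% for shCtrl, and the bars widen in the right-hand group of strongest summits.

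Position relative to genes separated the classes. An interval within 1000 bp of where an annotated gene begins or ends was counted at a gene start or end, any other overlap with a gene as gene body, and the rest as between genes. Gene starts or ends held 67.3% of shUbe2t #1-only intervals (544 of 808 on placed chromosomes, 64.0 to 70.6), 56.4% of shared intervals (163 of 289, 50.5 to 62.2) and 41.0% of shCtrl-only intervals (220 of 536, 36.8 to 45.3). The bounds of the shUbe2t #1-only and shCtrl-only classes did not overlap. They take intervals as separate, although some lie close together, and are no test between conditions. Gene bodies held 18.8%, 24.2% and 29.7% in the same order, and 13.9%, 19.4% and 29.3% lay between genes. The no-antibody list had 14.8% at gene starts or ends, and 6.01% of genome bases up to the last gene of each chromosome lie there. At equal list length the shares were 68.9%, 54.2% and 43.1%. With no-antibody overlaps kept, the shared class fell below the shCtrl-only class (34.6% against 39.0%), because its overlapping intervals lay at gene starts or ends in 16.4% of cases.

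**Figure D3:**
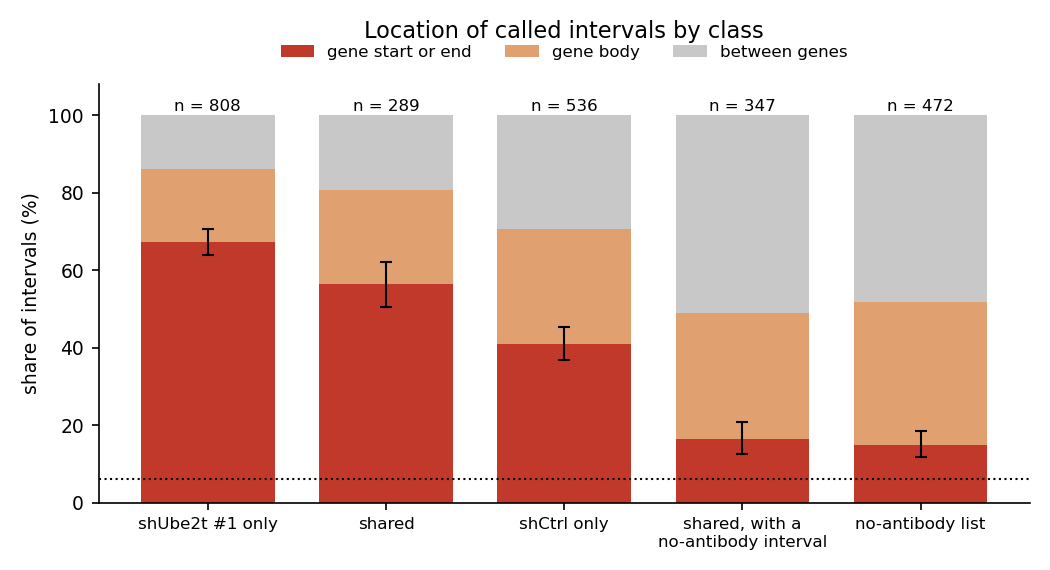
Share of intervals (y axis, %) at gene starts or ends, in gene bodies and between genes, stacked by class (x axis), with exact 95% binomial bars on the first and a dotted line at the 6.01% of genome bases near gene starts or ends. Gene starts or ends hold 67.3% of free shUbe2t #1-only intervals, 41.0% of free shCtrl-only intervals and 56.4% of free shared intervals.

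An interval counted as at a start when any of its genes began within 1000 bp, even if another gene ended there. By this rule, and where the promoter table gives strand, the gene end in question was nearly always the start. It was the start in 439 of 454 shUbe2t #1-only intervals (96.7%, 94.6 to 98.1), 159 of 164 shCtrl-only intervals (97.0%, 93.0 to 99.0) and 122 of 128 shared intervals (95.3%, 90.1 to 98.3). For shared intervals with a no-antibody overlap it was the start in 22 of 34 (64.7%, 46.5 to 80.3). Intervals that touched the starts of a pair of head-to-head genes made up 19.1% of the shUbe2t #1-only intervals at gene starts or ends, 15.0% of the shCtrl-only ones and 21.5% of the shared ones. Transcription end sites, the other place where R-loops are known to form, held 15, 5 and 6 intervals away from a start.

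Summits clustered just upstream of start sites in all 3 classes. A summit lay within 1000 bp of an annotated start in 60.6% of shUbe2t #1-only intervals (468 of 772 on chromosomes whose start sites were used here, 57.1 to 64.1), 32.4% of shCtrl-only intervals (169 of 521, 28.4 to 36.6) and 47.5% of shared intervals (133 of 280, 41.5 to 53.5). The median summit lay 61 bp upstream of the start with shUbe2t #1 only (−61, quartiles −173 and 32 bp), 40 bp upstream with shCtrl only (−40, quartiles −134 and 72 bp) and 94 bp upstream when shared (−94, quartiles −225 and 1 bp). Downstream of the start, in the transcribed stretch, lay 31.2% (27.0 to 35.6), 36.1% (28.9 to 43.8) and 25.6% (18.4 to 33.8) of these summits. The classes thus differed in how many summits were at starts, while their positions around the start overlapped widely. Some intervals counted in gene bodies had a summit within 1000 bp of an internal start of the same or another gene. They were 39 of 152 with shUbe2t #1 only (25.7%, 18.9 to 33.4), 17 of 159 with shCtrl only (10.7%, 6.35 to 16.6) and 13 of 70 shared (18.6%, 10.3 to 29.7). These totals were not limited to chromosomes whose start sites were used.

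**Figure D4:**
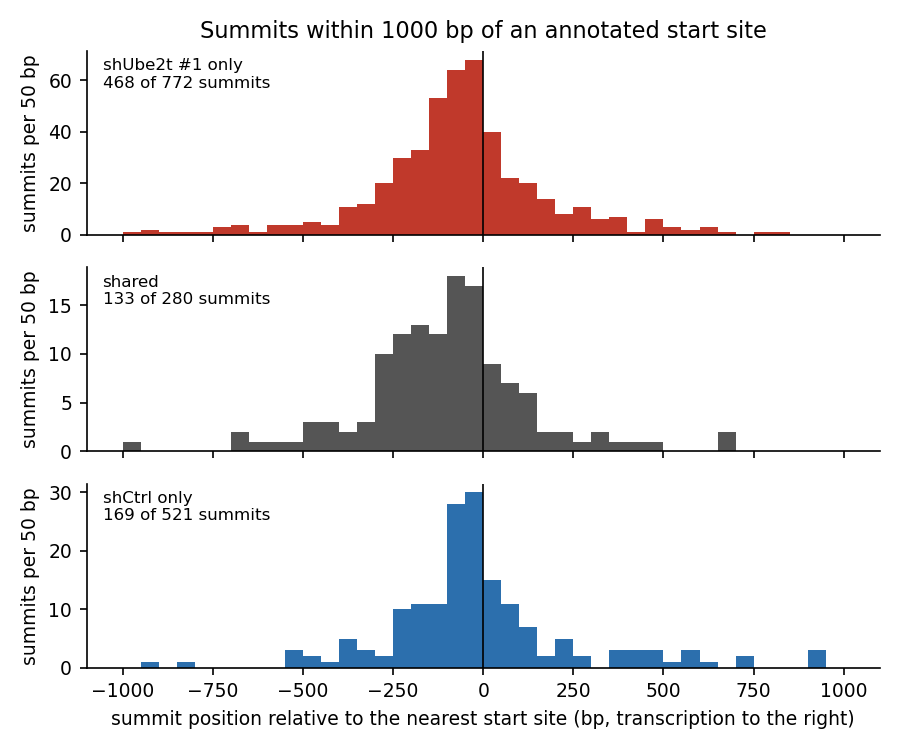
Number of summits per 50 bp (y axis) by distance from the nearest annotated start site (x axis, bp, transcription to the right) for free intervals, in 1 panel per class. The medians lie at −61 bp with shUbe2t #1 only, −40 bp with shCtrl only and −94 bp for shared intervals.

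The second hairpin's list took no part in forming the classes. It had an interval at 28.8% of shUbe2t #1-only intervals (239 of 831, 25.7 to 32.0) and at 22.4% of shCtrl-only intervals (131 of 585, 19.1 to 26.0). At shared shUbe2t #1 intervals the share was 84.2% (579 of 688, 81.2 to 86.8), all counted with no-antibody overlaps. Among free intervals the shares were 28.1% (229 of 815), 21.0% (116 of 552) and 71.2% (213 of 299). Most shUbe2t #1-only intervals were therefore not called with a second hairpin against the same gene. At gene starts or ends the shares among free intervals were 33.1% (180 of 544, 29.1 to 37.2) for shUbe2t #1 only and 29.1% (64 of 220, 23.2 to 35.6) for shCtrl only, and these bounds overlap. In gene bodies they were 17.1% and 17.0%, and between genes 18.8% and 13.4%. By strength, the second hairpin had an interval at 19.2% (34 of 177) of the shUbe2t #1-only intervals with a −log10 p under 6 and at 44.2% (50 of 113) of those from 10 to 14. For shCtrl-only intervals the shares were similar, 15.9% (26 of 164) and 41.4% (29 of 70). At 14 or more they were 8 of 18 with shUbe2t #1 only and 2 of 9 with shCtrl only.

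Genes with a shUbe2t #1-only interval, in the body or within 1000 bp, numbered 928, or 1.86% of 49943 placed genes, and those with a shCtrl-only interval 457, or 0.915%. For shared intervals the share was 0.597%. Over 21887 protein-coding genes the shares were 3.48%, 1.56% and 1.10%. Pseudogenes went the other way, with 8 of 9944 (0.0805%) at a shUbe2t #1-only interval and 24 (0.241%) at a shCtrl-only interval. Both kinds of interval occurred in 31 genes, some of them through near misses. At Zfp868 the shUbe2t #1 interval (11 fragments) and the shCtrl interval (13 fragments) were 1 bp apart, at Tmbim6 they were 3 bp apart, and at Ripk2 49 bp. Just inside the rule, Tubb4b was shared by 13 bp and Atf7 by 32 bp. Such edge cases were few, with 28 shUbe2t #1-only intervals within 500 bp of a shCtrl interval and 6 shared intervals with under 50 bp of overlap.

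The 12 genes with the highest deposited fold among free shUbe2t #1-only intervals, with predicted genes placed last, held 18 to 24 fragments at the summit, and 10 of them were at a gene start or end. The first was Hydin, an axonemal protein gene, with a 238 bp interval in its body (chromosome 8, 110500308 to 110500545), 20 fragments, a fold of 7.50 and no call with the second hairpin. Zfp983, shown above, had 19 fragments and a fold of 7.46, also with no second call. Gins2, the gene of a subunit of the replicative helicase (chromosome 8, 120589113 to 120589450), had 21 fragments (fold 7.33) with shUbe2t #1 and 16 (4.70) with the second hairpin. Both replication-linked genes of this group were called with both hairpins, since Wee1, the gene of the kinase that holds CDK1 inactive (chromosome 7, 110121661 to 110121932), had 22 fragments (7.10) and 12 (3.59).

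Mex3b, an RNA-binding protein gene with an interval 927 bp from its start (chromosome 7, 82866147 to 82866406), had 24 fragments (7.31) with shUbe2t #1 and 20 (5.17) with the second hairpin. Hspbp1 had 21 (7.24) and 16 (5.21). Smg1, the gene of a kinase of nonsense-mediated mRNA decay, had 21 (6.88) and 13 (4.38). Its interval lay 474 bp from its start and was also near 4930583K01Rik. Samd4b, a gene of the Smaug family of RNA-binding repressors, had 19 (6.99) and 11 (4.58). All 6 genes with a second call were at a gene start or end. The other 6 had none. Besides Hydin and Zfp983 these were Skap2, a Src-kinase adaptor gene (18 fragments, 7.20), Vapa, the gene of an ER contact-site protein (22, 7.10), Armc10 (18, 7.09) and Gnl3, the nucleostemin gene, at a start it shares with the chromatin remodeller gene Pbrm1 (20, 7.05). The Vapa interval was in the annotated body, with its summit 96 bp upstream of an internal start. Between genes, the 3 highest folds were at chromosome 6, 114553121 to 114553402 (16 fragments, 7.68, and 13, 6.28, with the second hairpin), at chromosome 2, 124003613 to 124003825 (17, 7.50), and at chromosome 3, 21698370 to 21698598 (17, 7.50), the last 2 without a second call.

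Among free shCtrl-only intervals, the 12 highest-fold genes held 14 to 20 fragments, and 6 of them were at a gene start or end. Cmtm6, the gene of a protein that stabilises PD-L1, had 18 fragments in its body (chromosome 9, 114743505 to 114743771, fold 7.14) and no call with the second hairpin. Of the 12, 7 were called with the second hairpin. Ptprg, a receptor tyrosine phosphatase gene, had 17 fragments (6.77) in shCtrl and 23 (8.33) with the second hairpin. Atg4c, an autophagy protease gene, had 15 (6.91) and 14 (6.41), and Map3k20, the gene of a stress-activated kinase, 15 (6.50) and 15 (5.80). Txnrd3, a thioredoxin reductase gene, had 19 (6.33) and 17 (5.49), and Miga1, a mitochondrial fusion factor gene, 18 (6.38) and 13 (4.40). Ncl, the nucleolin gene, had 17 (6.47) at its start and 12 (3.74), and Sox5, a transcription factor gene, 19 (6.58) and 10 (4.30). These sites were absent from the shUbe2t #1 list and present under the other Ube2t hairpin. Nr6a1 (20 fragments, 6.82), Wasf1 (18, 6.69, also at the start of the splicing factor gene Cdc40), the chloride exchanger gene Clcn3 (14, 6.41) and Mcee, the methylmalonyl-CoA epimerase gene (16, 6.39), were at starts and had no call with the second hairpin. Between genes, the highest was at chromosome 14, 47629362 to 47629614, with 25 fragments (9.22) in shCtrl and 15 (6.06) with the second hairpin.

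The gene lists carried few members, and each count is read against the share over protein-coding genes. Of 34 matched Fanconi anaemia and crosslink repair genes, 2 held a shUbe2t #1-only interval (5.88%, against 3.48%) and 1 a shCtrl-only interval (2.94%, against 1.56%). Brca1, which acts in homologous recombination and has been tied to R-loop removal, had 23 fragments and a fold of 6.59 at its start (chromosome 11, 101552524 to 101552859) with shUbe2t #1, and no call in the other 3 libraries. Fancc, a core complex gene, had 15 fragments (6.02) in its body and 12 (4.81) with the second hairpin. Slx4, the scaffold of repair nucleases, had 12 (4.14) in shCtrl and 13 (4.43) with the second hairpin. Of 38 R-loop processing factors, 2 had a shUbe2t #1-only interval (5.26%, against 3.48%). They were the fork-remodelling helicase gene Zranb3 (13 fragments, 5.04, and 14, 5.40, with the second hairpin) and the RNA helicase gene Ddx5 (14, 3.93), the latter at the end of the gene. Of 40 ubiquitin E1 and E2 genes, Ube2d3 (13, 4.12) and Ube2s (11, 4.35) had shUbe2t #1-only intervals (5.00%, against 3.48%). Birc6 had a shared one, with 14 fragments against 12 in shCtrl.

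Replication and cell cycle genes gave 5 of 50 with a shUbe2t #1-only interval (10.0%, against 3.48%) and 0 with a shCtrl-only interval (against 1.56%). Apart from Wee1 and Gins2 they were Dtl, the gene of the CRL4 substrate receptor that targets CDT1 (20 fragments, 6.69, and 15, 5.30, with the second hairpin), the cyclin A2 gene Ccna2 (15, 6.15, no second call) and the spindle checkpoint gene Mad2l1 (13, 4.76, and 11, 4.76). The cyclin E2 gene Ccne2 was shared, with 13 fragments against 14 in shCtrl. Chaperones gave 5 of 35 with a shUbe2t #1-only interval (14.3%, against 3.48%) and 0 with a shCtrl-only interval (against 1.56%). In lists this short, a count of 0 is near the shCtrl-only share over protein-coding genes. They were Bag1, Hspbp1, Dnajc7, Cct7 and Stip1, with 19, 21, 17, 12 and 11 fragments, all at starts, and the first 3 were also called with the second hairpin at 11, 16 and 19 fragments. Hspa8, the constitutive HSP70 gene, was shared with 13 fragments in each library. Integrator, Mediator and RNA polymerase II genes gave 3 of 52 (5.77%, against 3.48%). They were Ints7 (at the interval it shares with Dtl), Ints3 and Ints12. In these 3 lists together no count exceeded 5 genes, and no list was tested.

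Over protein-coding genes the shares were 3.48% with shUbe2t #1 only, 1.56% with shCtrl only and 1.10% when shared. Ribosomal protein genes gave 2 of 78 with shUbe2t #1 only (2.56%, Rpl7 and Rpl15, 11 and 12 fragments). With shCtrl only they also gave 2 (2.56%, Rpl4 and Rpl37, 17 each). Splicing factor genes gave 2 of 50 (Hnrnpl and Rbm25) and 2 (Sf3b3 and Hnrnpc), with Hnrnpa2b1 shared. DNA damage and p53 genes gave 1 of 38 (2.63%, Xrcc6, the Ku70 gene, at 9 fragments) and 1 (2.63%, Mdc1, a checkpoint mediator gene, at 15). Of 40 genes of pluripotency and embryonal carcinoma, 0 held an interval of any of the 3 classes, and of 40 markers of differentiated lineages 1 did (Map2, 10 fragments with shUbe2t #1 only). The named identity of the cells could not be checked from these intervals. The no-antibody list held 0 members of any list, against 0.731% of protein-coding genes.

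The shCtrl-only class was more crowded along the genome than the shUbe2t #1-only class. Of shCtrl-only intervals, 22.8% (122 of 536, 19.3 to 26.5) had another of the class within 100 kb, against 15.0% (121 of 808, 12.6 to 17.6) with shUbe2t #1 only. The shared class was near the shCtrl-only share, with 21.5% (62 of 289, 16.9 to 26.6). Bins of 1 Mb with 5 or more intervals of the class held 15.9% of shCtrl-only intervals (12.9 to 19.2) and 4.70% of shUbe2t #1-only intervals (3.35 to 6.40). For shared intervals the share was 7.27% (4.55 to 10.9). The fullest shCtrl-only bin, chromosome 8 from 20 to 21 Mb, held 17 of them and 3 shUbe2t #1-only intervals. Its named members lay in predicted genes such as Gm21119 and Gm20946, and 1 of the 17 was at a gene start or end. The bin on chromosome 4 from 146 to 147 Mb held 13, in and beside the zinc finger gene Zfp993 and the vomeronasal receptor pseudogenes Vmn2r-ps16 and Vmn2r-ps17, and that on chromosome 5 from 15 to 16 Mb held 12 near Speer4c. The crowded shUbe2t #1-only bins included 2 of that kind (chromosome 14, 41 to 42 Mb, 7 intervals, and chromosome 5, 15 to 16 Mb, 6 intervals). Others held ordinary genes, such as chromosome 11 from 69 to 70 Mb with Eif4a1, Fxr2 and Per1 among 5 intervals, all at gene starts or ends. Free intervals with at least 25 fragments and a fold under 4, high signal on a high local background, made up 6.34% of shCtrl-only intervals (35 of 552, 4.46 to 8.71) and 1.60% of shUbe2t #1-only intervals (13 of 815, 0.852 to 2.71). They made up 5.35% of shared intervals (16 of 299, 3.09 to 8.54). How reads from repeated sequence were assigned is not given in the sources used here, and its part in these counts was not tested. Without the 17 bins that hold 5 or more intervals of a class, the share at gene starts or ends was 45.6% with shCtrl only, 68.7% with shUbe2t #1 only and 62.1% when shared.

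At shared intervals the signal can be set side by side, as depth-scaled pileup, the summit's fragments over its library's lowest background. A call in both lists is needed, so sites below the threshold in either are missing. The scaling alone gives a pair with equal fragment counts a ratio of 1.08. Over all 688 pairs the median ratio of shUbe2t #1 to shCtrl was 1.08, with 9.16% at 1.5 or more and 4.36% at 1/1.5 or less. Median fragments were 24 in shUbe2t #1 and 25 in shCtrl over all pairs, and 16 in each over free pairs. The 299 free pairs had a median of 1.08 (95% interval of the median 1.05 to 1.15, SD of single pairs 0.357), with 47 (15.7%) up and 12 (4.01%) down by that measure. Intervals of a median describe the spread over pairs within 1 library per condition. They take pairs as separate, although some reuse a shCtrl interval, and leave out error in the depth scaling. The 389 pairs with a no-antibody overlap had a median of 1.04 (1.01 to 1.08), with 16 (4.11%) up and 18 (4.63%) down. Free pairs at gene starts or ends had a median of 1.16 (1.08 to 1.23, 163 pairs, 32 up and 5 down), those in gene bodies 1.08 (1.01 to 1.22) and those between genes 0.97 (0.92 to 1.08, 56 pairs, 3 up and 4 down). Single pairs at gene starts or ends had an SD of 0.364. Scaled so that pairs with a no-antibody overlap have a median of 1, the free median was 1.04.

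**Figure D5:**
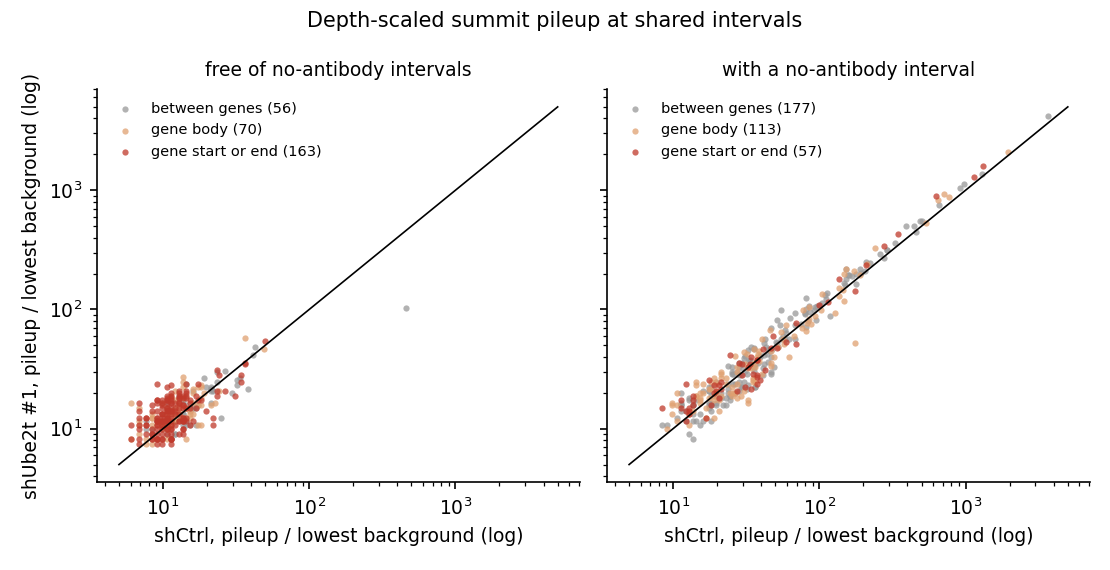
Depth-scaled summit pileup of shUbe2t #1 (y axis, log scale) against shCtrl (x axis, log scale) at shared intervals on placed chromosomes, 1 point per pair, coloured by location, with a line at equality (289 free pairs on the left, 347 with a no-antibody interval on the right). Points gather about the line, and pairs with equal fragment counts lie at a ratio of 1.08. Medians on the left are 1.16 at gene starts or ends and 0.97 between genes. The point far below the line on the left is the pair on chromosome 9 with a ratio of 0.22.

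Counting error was wide for single genes. Dcaf6, the gene of a CUL4 substrate receptor, had 29 fragments against 12 in shCtrl at its start, 17 with the second hairpin, and a ratio of 2.62 (1.30 to 5.64, exact binomial on both counts). Gatad2a had 20 against 9 and 24 with the second hairpin (2.41, 1.05 to 6.01). Casc1 had 27 against 14 and 22 (2.09, 1.06 to 4.32). Xpo1, the gene of the main nuclear export receptor, had 28 against 15 and 21 (2.02, 1.04 to 4.08). For these 4 the counting interval stayed above 1, before any allowance for having picked the extremes of 299. It reached below 1 for 5 others among the highest ratios, Syt14 (2.05), Izumo4 (1.90), Garem1 (1.90), the translation release factor gene Etf1 (1.87) and Pxmp4 (1.81). Summits of the second hairpin at these 9 genes held 13 to 24 fragments, and both hairpins are set against the same shCtrl counts. Some of these intervals were also at the start or end of another gene, Mpc2 for Dcaf6, Etfrf1 for Casc1 and Mob3a for Izumo4.

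Lower ratios lay mostly outside the named genes, as predicted genes were placed last by the naming rule. Gm9919, a predicted gene, had 13 fragments against 29 (0.49, 0.23 to 0.97). Between genes, chromosome 5 had 15 against 33 at 15498536 to 15498820 (0.49, 0.25 to 0.93) and 26 against 50 at 15479988 to 15480249 (0.56, 0.34 to 0.92). These 3 counting intervals stayed below 1, and all 3 sites were chosen after their values were seen. Among the named genes, Col23a1, a collagen gene, had 13 fragments against 23 in shCtrl (0.61, 0.29 to 1.26), Pcnx4 9 against 15 (0.65) and Atf7, a transcription factor gene, 11 against 18 (0.66), all 3 without a call under the second hairpin. B3gntl1 had 11 against 17 and the 5S ribosomal RNA gene n-R5s100 13 against 20, both with a ratio of 0.70. Rnf41, a ubiquitin ligase gene, had 17 against 26 and 23 with the second hairpin (0.71, 0.36 to 1.36). Each of these 6 counting intervals included 1. The lowest ratio of all free pairs reflects how intervals were split. On chromosome 9, 3007160 to 3007362, a shUbe2t #1 interval with 124 fragments met a longer shCtrl interval with 606 (0.22, 0.18 to 0.27), and the adjoining shUbe2t #1 interval at 3006626 to 3007006, with 542 fragments, met the same one (0.97, 0.86 to 1.09). Both were chosen after their values were seen.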

How the data were processed

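S9.6 CUT&Tag was deposited as 1 peak list per library for 4 libraries, with 11 PCR cycles per the labels' protocols. Per the submitters' processing notes, reads were handled with Trimmomatic, MACS2 2.1.2 and Bowtie (given there as 0.7.12) on mm10. Not given in the sources used here are step order, duplicate handling, multi-mapped reads, the peak threshold and whether peaks were called against a control library. Duplicates, if kept, would raise single summits. Replicates were not pooled, as each condition has 1 library. The authors' fold enrichment per summit is a ratio. Its p-value and q-value were deposited on a −log10 scale. The peak score column deposited by the authors was not used.

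Fold and −log10 p were solved for summit pileup and background, taking p as a Poisson tail, and all pileups came out whole within 0.05. The solver and the overlap steps were tested on simulated data. Depth is the lowest background of a library. Genes came from RefSeq (GRCm38.p6, 49943 placed genes), and strand was known for 17492 of 21887 protein-coding genes. Exons, introns and UTRs were not told apart.

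The members and the 11 gene lists (495 of 497 names matched) were chosen with earlier results of these data known. Named genes were, among free intervals and with Gm and Rik names last, the 12 highest folds of each single-list class, the 10 highest and 6 lowest ratios of shared intervals, the 3 highest folds between genes, list members and Ube2t; 1 gene that this rule takes is not reported here. Counts in crowded 1 Mb bins were added after seeing the data. Alternatives were a −log10 q of at least 5, other overlap rules, other windows, protein-coding genes only, equal list length and another scaling. No test between conditions was made. Python 3.11.15, numpy 2.4.6, pandas 2.3.3, scipy 1.17.1 and matplotlib 3.10.9 were used.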

Additional observations from a re-analysis of the deposited data

How the results depend on the processing

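Of 49 recomputed values, 30 stayed within counting bounds (shares), within 1.5 times (counts) or within the interval of the median (ratio), and 19 moved. A reversal was looked for only in the median ratio, which stayed above 1. At equal list length the single-list counts were 624 for shUbe2t #1 only and 633 for shCtrl only. Each is then the same length less the shared intervals, so the counts come close by construction. With a −log10 q of at least 5 in both lists there were 282 shUbe2t #1-only, 192 shCtrl-only and 414 shared intervals. The no-antibody overlap was then 7.45%, 21.4% and 80.0%, the shared share at gene starts or ends 42.0% (40.3% with shCtrl only), the second-hairpin share of shUbe2t #1-only intervals 54.3%, and the median ratio 1.04. A stricter threshold turns some partners into absences, which fewer intervals per list produce by construction. Gene starts or ends held 62.1% (shUbe2t #1 only) and 34.9% (shCtrl only) with a 500 bp window, 71.9%, 47.6% and 66.1% (shared) with 2000 bp, and 62.6% and 31.7% with protein-coding genes only. The shared share was 34.6% with no-antibody overlaps kept, and the shCtrl-only share 45.6% without crowded bins, a setting chosen after seeing the data. The ratio was 1.04 when scaled on pairs with a no-antibody overlap. The shUbe2t #1-only share at gene starts or ends exceeded the shCtrl-only share under each of these settings. No paired analysis was possible because each condition has 1 library. Depth limits single sites, whose median single-list summit held 13 fragments.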
